A study of Arabidopsis thaliana with 2 samples.

Results

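The Aux/IAA and ARF genes are the paired repressors and DNA-binding factors through which the plant hormone auxin sets gene expression. The 44 members were taken by gene identifier, 29 Aux/IAA genes (IAA1 to IAA20 and IAA26 to IAA34) and 15 ARF genes (ARF1 to ARF11 and ARF16 to ARF19), and all 44 were found among the 33557 genes of both deposited tables. The study shifted Arabidopsis thaliana seedlings between temperatures and sequenced their messenger RNA; the samples used here form 1 group of 2 libraries, called replicate 2 and replicate 1. Both come from whole seedlings of accession Col-0 with the arp6-1 mutation, which were 10 days old, had grown at 17 °C in long days, and were taken in the arm kept at 17 °C at 15 min after a shift begun 1 h after dawn. ARP6 is a subunit of the chromatin remodelling complex that places the histone variant H2A.Z in nucleosomes. Wild-type seedlings and warmed seedlings were not analysed here, so levels are described within arp6-1 and the comparison is between its duplicates. Nothing in the labels ties the replicates to separate cultures, and the spread between them, with every p-value given, may be technical.

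Auxin acts as a glue between an F-box receptor of the TIR1/AFB family and an Aux/IAA protein, which is then marked with ubiquitin and destroyed. Aux/IAA proteins otherwise sit on ARF proteins at auxin response elements in promoters and recruit TOPLESS co-repressors, so that their loss frees the ARFs. Class A ARFs activate transcription, and class B and class C ARFs mostly repress it. Many Aux/IAA genes are themselves switched on by ARFs, which makes the system a feedback loop, and transcripts of several ARFs are cut under the guidance of small RNAs. In seedlings these genes are best known for hypocotyl and root growth, lateral root initiation and vascular patterning.

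The stretch of coding sequence for the degron, the part of an Aux/IAA protein that auxin and its receptor bind, sets most members of the family apart and was searched for in the longest coding sequence of each gene in the TAIR10.1 annotation (RefSeq). The long form searched in reading frame is the codons for glycine, tryptophan, proline, proline and valine in a row, with the third base of the tryptophan codon fixed and that of the others free. It was present in 17 of 27444 coding genes (0.0619%), and all 17 were Aux/IAA members. The short form, which lacks the valine codon and is contained in the long one, was present in 34 coding genes (0.124%), among them 23 of the 29 Aux/IAA members and 0 of the 15 ARFs. IAA8, IAA10, IAA11, IAA12, IAA13 and IAA27 held only the short form, and IAA20, IAA30, IAA31, IAA32, IAA33 and IAA34 held neither. Of those last 6, IAA31 alone had the core TGGCCNCCN in frame, which 250 coding genes have. The stretches of the 3 most abundant Aux/IAA transcripts, of the 2 that differed most between the libraries among members with at least 10 counts in both, and of IAA31 are printed, with the matched motif in capitals.
IAA16 (chr3:1289727-1289756, minus strand): gttgtgGGATGGCCACCGGTAcgatctttc
IAA9 (chr5:26255107-26255136, plus strand): attgtcGGTTGGCCTCCAGTGagatcctac
IAA8 (chr2:9637728-9637757, plus strand): gttgttGGTTGGCCTCCAatcagatcatac
IAA1 (chr4:8361439-8361468, plus strand): atcgttGGATGGCCTCCAGTGagatctaac
IAA2 (chr3:8181384-8181413, minus strand): atcgttGGTTGGCCACCAGTGagatcttcc
IAA31 (chr3:6020782-6020811, minus strand): agacaagatTGGCCACCGataaagtctaga
The 23 genes with the motif are called degron genes in what follows, and the other 6 genes without a complete degron. Coding sequences ran from 390 to 1017 bases in 2 to 6 coding exons among Aux/IAA genes, against 1791 to 3498 bases in 2 to 14 coding exons among ARF genes.

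For the ARFs, the sequences that mark subgroups are the target sites of microRNAs. The mature miR160a-5p and miR167a-5p, from RefSeq on TAIR10.1, were laid against all annotated transcripts of the 44 members without gaps, and are printed with bases 2 to 8, the seed, in capitals.
miR160a-5p (chr2:16340282-16340302, plus strand): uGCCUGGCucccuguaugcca
miR167a-5p (chr3:8108090-8108110, plus strand): uGAAGCUGccagcaugaucua
At most 4 of 21 bases differed from the exact complement of miR160a-5p in 3 members, with G:U pairs counted as differences. These were the class C genes ARF10, ARF16 and ARF17, and the next best member had 8 differences. For miR167a-5p the same limit held 2 members, ARF6 and ARF8 of class A, and the next best had 7 differences. All 5 sites lie in annotated coding sequence. They are printed as the coding strand, with bases that match the exact complement in capitals.
ARF17 (chr1:29274189-29274209, plus strand): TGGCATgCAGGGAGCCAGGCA
ARF10 (chr2:12115741-12115761, plus strand): aGGaATACAGGGAGCCAGGCA
ARF16 (chr4:14704141-14704161, minus strand): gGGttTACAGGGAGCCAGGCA
ARF8 (chr5:14633841-14633861, plus strand): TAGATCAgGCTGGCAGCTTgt
ARF6 (chr1:10686478-10686498, minus strand): gAGATCAgGCTGGCAGCTTgt

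Gene counts summed to 12410991 in replicate 2 and 20249142 in replicate 1, and 19519 genes reached at least 10 counts in both. ARP6, whose span overlaps another gene in the files, had 7 counts in replicate 2 and 7 in replicate 1. Of the checked tissue markers, the 4 of shoots had log2 differences between -0.09 and 0.07. By the exact binomial test, 2 shoot markers were higher and 2 lower in replicate 2, 4 of 5 tested root markers lower and all 3 vascular markers higher. That test called 31.9% of all tested genes higher and 31.9% lower. Past 2-fold were 0 shoot markers, 2 root markers (lower) and 1 vascular marker (higher), against 17.0% of all tested genes. Of 7 flower, pollen and seed markers, 4 had 0 counts in both libraries. Of the other 3, the late seed genes EM6 and EM1 had 142 and 100 counts in replicate 2, against 5 and 6 counts in replicate 1, and AP1 had 1 count in each. Replicate 2 stood apart in genes of the abscisic acid and drying response, of which RAB18, LTI65, LEA4-5 and RD29A summed to 3437 TPM in replicate 2 and to 22.04 TPM in replicate 1. The part of these differences in the results on Aux/IAA and ARF genes was not tested. In whole seedlings, fewer cells of a type and less RNA per cell cannot be told apart.

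A few members carried most of the Aux/IAA transcripts, and the rest of the family reached down to a few counts. Levels are the authors' TPM, which corrects for transcript length and library size. IAA16 (AT3G04730), a degron gene close to IAA7, IAA14 and IAA17 in sequence, had 219 TPM in replicate 2 and 146 TPM in replicate 1 (182 ± 51.6, SD, n = 2). IAA9 (AT5G65670), whose tomato counterpart is known from leaf and fruit development, had 157 TPM in replicate 2 and 183 TPM in replicate 1 (170 ± 18.7). Its close relative IAA8 (AT2G22670) had 145 TPM in replicate 2 and 171 TPM in replicate 1 (158 ± 18.3). These 3 genes together held 39.5% of the summed Aux/IAA TPM in replicate 2 and 40.8% in replicate 1. IAA16 was above IAA9 and IAA8 in replicate 2 and below both in replicate 1, so that no order of the 3 is given. IAA9 over IAA8 was 1.08 in replicate 2 and 1.07 in replicate 1. The 5 highest genes of each library held 59.5% of the sum in replicate 2 and 57.6% in replicate 1. IAA2 (AT3G23030) had 154 TPM in replicate 2 and 68.4 TPM in replicate 1, and IAA7 (AT3G23050), the repressor altered in the auxin-resistant axr2 mutant, had 111 TPM in replicate 2 and 107 TPM in replicate 1. IAA7 was thus steady where IAA2 was not.

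**Figure D1:**
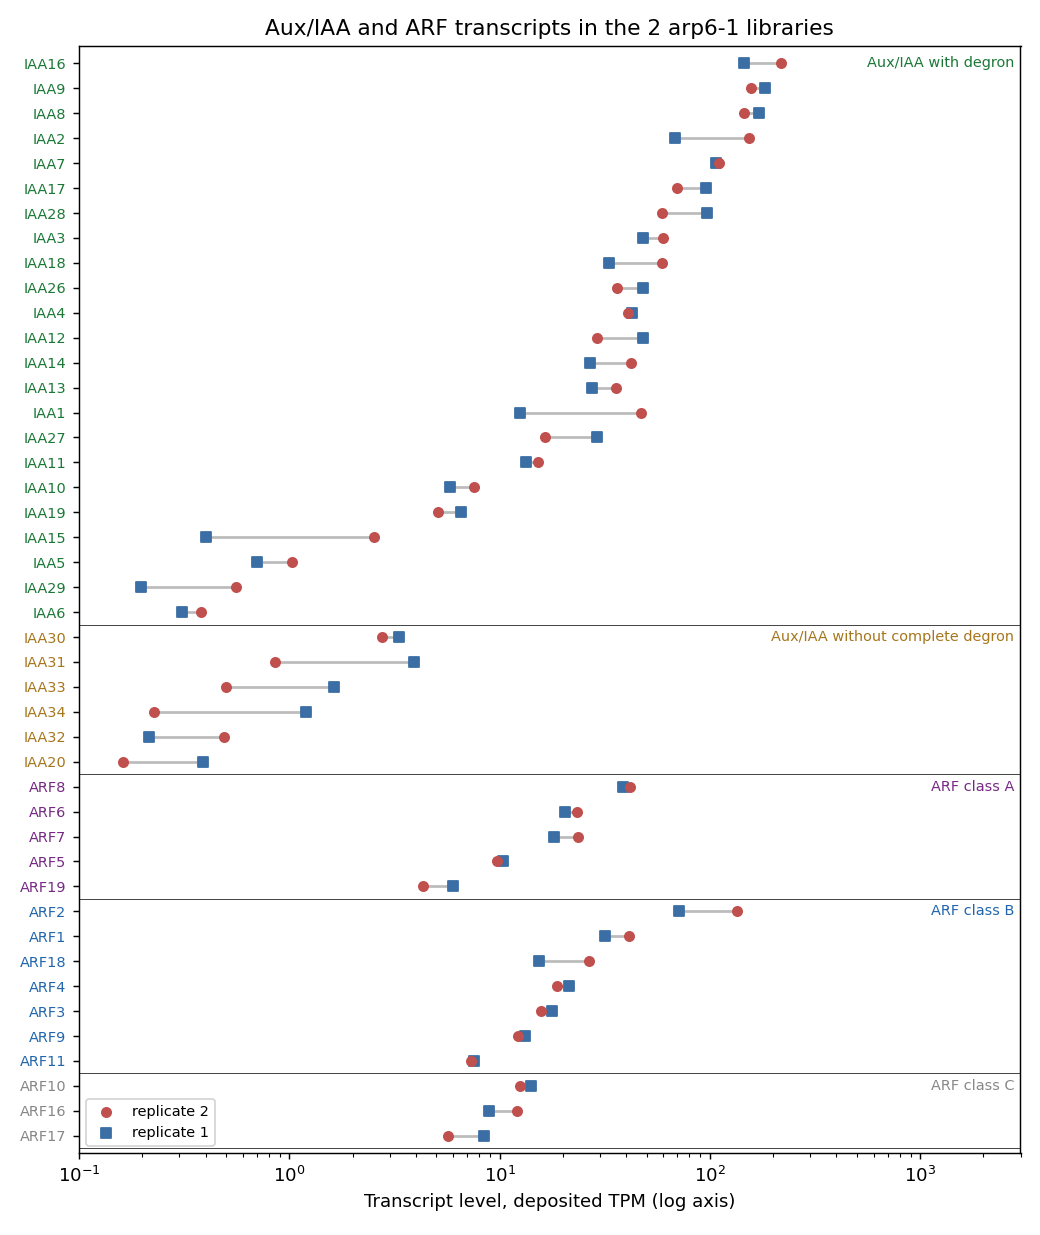
Deposited TPM of each of the 44 members (log axis) in replicate 2 (circles) and replicate 1 (squares), by subgroup and in falling order of the mean. Aux/IAA genes run from IAA16 at 219 and 146 TPM down to values below 1 TPM, while all 15 ARFs lie between 4.33 TPM (ARF19 in replicate 2) and 135 TPM (ARF2 in replicate 2).

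Below these came a middle group of degron genes. IAA17, the repressor of the axr3 mutant, had 69.8 TPM in replicate 2 and 96.2 TPM in replicate 1, and IAA28, known as a repressor of lateral root initiation, had 59.4 TPM in replicate 2 and 97.3 TPM in replicate 1. IAA3, also called SHY2 and a repressor in the root transition zone, had 59.9 TPM in replicate 2 and 47.9 TPM in replicate 1. IAA12, the partner of ARF5 in embryonic root formation, had 29.2 TPM in replicate 2 and 48.2 TPM in replicate 1. IAA18, IAA26, IAA4, IAA14, IAA13, IAA1, IAA27 and IAA11 had means between 14.3 TPM (IAA11) and 46.2 TPM (IAA18). IAA10 and IAA19 stood lower, at 6.70 ± 1.26 and 5.81 ± 1.03 TPM; IAA19, the repressor of the massugu2 mutant, is known for its place in hypocotyl bending and elongation.

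At the bottom of the degron genes were IAA15, IAA5, IAA29 and IAA6. IAA29, a gene that shade and warmth induce through PIF factors, had 5 counts in replicate 2 and 3 in replicate 1, which is 0.559 TPM in replicate 2 and 0.198 TPM in replicate 1. IAA6 had 3 counts in replicate 2 and 3 in replicate 1, or 0.380 and 0.310 TPM. The exact 95% Poisson bounds on 3 counts are 0.619 and 8.77, for counting error alone. IAA5 had 5 counts in replicate 2 and 9 in replicate 1, and IAA15 had 17 counts in replicate 2 and 7 in replicate 1. None of the 44 members had a count of 0 in either library.

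The genes without a complete degron were low in both libraries. IAA30 was the highest of the 6 by mean, with 2.77 TPM in replicate 2 and 3.33 TPM in replicate 1. IAA31 had 0.858 TPM in replicate 2 and 3.91 TPM in replicate 1, and IAA33 had 0.499 TPM in replicate 2 and 1.63 TPM in replicate 1. IAA34, IAA32 and IAA20 had means of 0.714, 0.353 and 0.276 TPM. All 6 lay below the median of the 24537 genes with a count (10.5 TPM in replicate 2 and 10.4 TPM in replicate 1), whereas 17 of the 23 degron genes lay above it in both libraries and 6 below it in both. The genes without a complete degron summed to 5.01 TPM in replicate 2 and 10.7 TPM in replicate 1. That is 0.380% and 0.872% of all Aux/IAA TPM.

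ARF levels spanned a narrower range than Aux/IAA levels. The levels of the 29 Aux/IAA genes spanned 1355-fold in replicate 2 and 926-fold in replicate 1, and those of the 15 ARFs 31.2-fold in replicate 2 and 11.8-fold in replicate 1. The Aux/IAA spans rest on their lowest members, IAA20 with 1 count in replicate 2 and IAA29 with 3 counts in replicate 1. The Aux/IAA median was 4.86 ± 0.07 on the log2(TPM + 1) scale (4.92 in replicate 2, 4.81 in replicate 1), the ARF median 4.05 ± 0.02 (4.06 and 4.04), and the median of all genes with a count 3.51 (3.52 and 3.51). The difference of the family medians, 0.81 ± 0.06 for Aux/IAA minus ARF, was 0.26 when TPM was computed from the counts and annotated exon lengths, and 1.47 over the members with at least 10 counts in both libraries. Ranks of members by TPM were similar in both libraries, with Spearman's rho of 0.927 across the 29 Aux/IAA genes and 0.943 across the 15 ARFs, as a description across genes that share the same 2 libraries. Summed deposited TPM of the 29 Aux/IAA genes exceeded that of the 15 ARFs 3.38-fold in replicate 2 and 4.03-fold in replicate 1. These sums cover unequal numbers of genes. The ratio was not given with TPM computed from the counts, which narrowed the difference of the medians.

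Of the class A activators, ARF8 (AT5G37020) was the most abundant, with 41.8 TPM in replicate 2 and 38.7 TPM in replicate 1; with ARF6, its partner in flower maturation and hypocotyl growth and the other gene with a miR167 site, it stood at a ratio of 1.78 in replicate 2 and 1.89 in replicate 1. ARF6 had 23.5 TPM in replicate 2 and 20.5 TPM in replicate 1. ARF7, which with ARF19 drives lateral root formation, had 23.5 TPM in replicate 2 and 18.1 TPM in replicate 1, but its value is uncertain, since its span overlaps that of another gene. ARF5, also known as MONOPTEROS and needed for the embryonic root and veins, had 9.75 TPM in replicate 2 and 10.4 TPM in replicate 1. ARF19 was the lowest ARF in both libraries, at 4.33 TPM in replicate 2 and 6.02 TPM in replicate 1. The activators held 26.4% of the summed ARF TPM in replicate 2 and 30.9% in replicate 1 (28.6 ± 3.202%, SD, n = 2).

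Class B was dominated by ARF2, a repressor known for seed size, ageing and flowering. ARF2 (AT5G62000) had 135 TPM in replicate 2 and 71.2 TPM in replicate 1, the highest of the 15 in both, and 34.6% of all ARF TPM in replicate 2 against 23.4% in replicate 1. ARF1, which acts with ARF2 in ageing and floral organ shedding, had 41.3 TPM in replicate 2 and 31.8 TPM in replicate 1. ARF18 had 26.6 TPM in replicate 2 and 15.4 TPM in replicate 1. ARF3 and ARF4, which set the lower side of leaves and are targets of the TAS3 small RNAs, had means of 16.7 ± 1.51 and 20.1 ± 1.88 TPM, and ARF9 and ARF11 had 12.7 ± 0.682 and 7.45 ± 0.141 TPM.

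The 3 class C genes with a miR160 site summed to 30.3 TPM in replicate 2 and 31.5 TPM in replicate 1. Their median log2(TPM + 1), averaged over the libraries, was 3.51, against 4.44 for the 5 class A genes and 4.27 for the 7 class B genes. Levels of single genes overlapped between the classes, and the lowest ARF in both libraries was ARF19 of class A. ARF10 had 12.5 TPM in replicate 2 and 14.1 TPM in replicate 1, ARF16 had 12.2 TPM in replicate 2 and 8.91 TPM in replicate 1, and ARF17 had 5.66 TPM in replicate 2 and 8.42 TPM in replicate 1. ARF10 and ARF16 act in root cap formation and seed dormancy, and ARF17 in adventitious rooting and pollen wall formation. Precursor transcripts of the small RNAs, looked up after the values of the ARFs were seen, gave few counts except for TAS3. MIR160A had 0 counts in both libraries, MIR160B 1 in each and MIR160C 2 in each. The floor of 3 counts set for a count of 0 is 0.242 CPM in replicate 2 and 0.148 CPM in replicate 1. MIR167A had 4 counts in replicate 2 and 10 in replicate 1, and MIR167B had 5 in replicate 2 and 11 in replicate 1. MIR167C had 0 in both, and MIR167D had 12 in replicate 2 and 6 in replicate 1. TAS3 had 316 counts in replicate 2 and 618 in replicate 1.

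**Figure D2:**
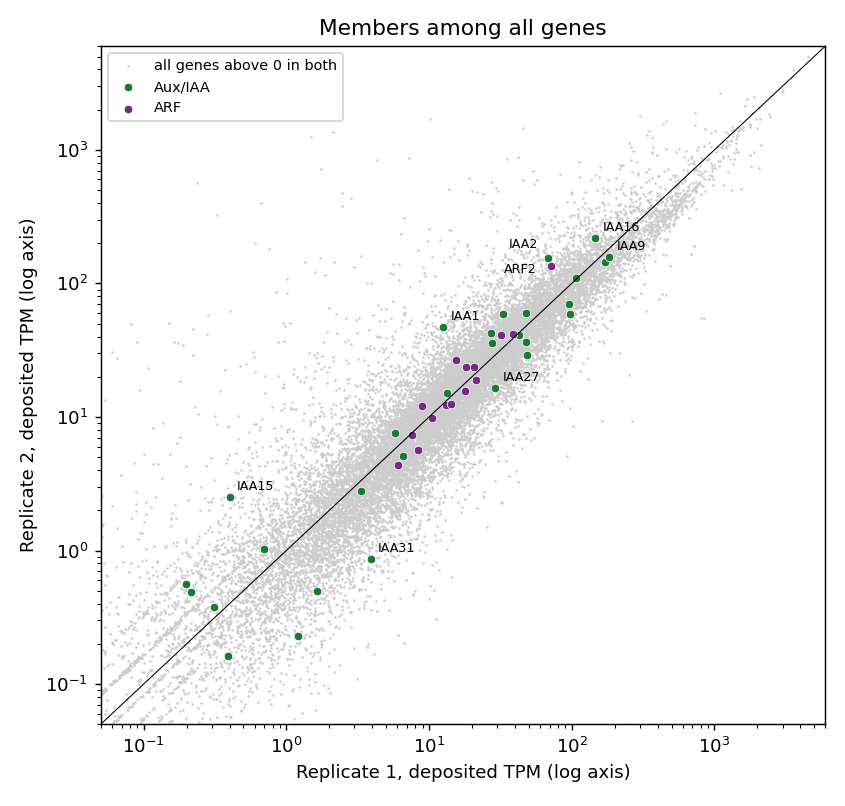
Deposited TPM of every gene above 0 in both libraries (grey), with replicate 2 on the vertical and replicate 1 on the horizontal axis (both log), and with Aux/IAA genes in green and ARF genes in purple. Most members lie near the line of equal values; IAA1 (47.2 and 12.5 TPM) and IAA2 (154 and 68.4 TPM) lie above it, and IAA31 (0.858 and 3.91 TPM) below it.

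Between the duplicates, the tested members with the largest differences were 2 degron genes, IAA1 and IAA2, both higher in replicate 2. A log2 difference is that of counts scaled by TMM with a prior count of 2, replicate 2 minus replicate 1, and a call is a difference of at least 2-fold. The 35 members with at least 10 counts in both libraries were tested, 20 of 29 Aux/IAA genes and 15 of 15 ARFs. Past 2-fold were 2 of these 35 (5.71%), against 17.0% of all 19519 tested genes. Higher in replicate 2 by that measure were 2 members and 8.76% of tested genes, and lower were 0 members and 8.24% of tested genes. The median log2 difference was 0.02 over the 20 Aux/IAA genes and -0.03 over the 15 ARFs, against -0.0047 over all tested genes. The median absolute difference was 0.44 for Aux/IAA genes and 0.29 for ARFs, against 0.43 for all tested genes, so that the Aux/IAA genes differed between duplicates by about as much as other genes.

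IAA1 (AT4G14560) had 355 counts in replicate 2 and 163 in replicate 1, or 47.2 and 12.5 TPM. Its log2 difference was 1.88 (95% counting interval 1.63 to 2.18), larger in size than that of 96.2% of tested genes (adjusted p = 5.47e-47, exact binomial test). IAA2 had 1411 counts in replicate 2 and 1075 in replicate 1, and its log2 difference was 1.17 (1.05 to 1.29). Both are early auxin-induced genes. Short of 2-fold, ARF2 had 4836 counts in replicate 2 and 4337 in replicate 1, with a log2 difference of 0.93 (0.87 to 0.99). IAA18 followed at 0.89 (0.74 to 1.04), ARF18 at 0.79 (0.62 to 0.97), IAA14 at 0.67 (0.50 to 0.85) and IAA16 at 0.59 (0.52 to 0.67). At the other end, IAA27 had 189 counts in replicate 2 and 564 in replicate 1, and its log2 difference was -0.80 (-1.05 to -0.56). IAA12 stood at -0.71 (-0.90 to -0.53), IAA28 at -0.63 (-0.78 to -0.47), ARF17 at -0.49 (-0.81 to -0.18) and IAA17 at -0.48 (-0.61 to -0.35). Closest to 0 were ARF11 at -0.03, ARF5 at -0.04, IAA4 at -0.05 and IAA7 at 0.09.

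**Figure D3:**
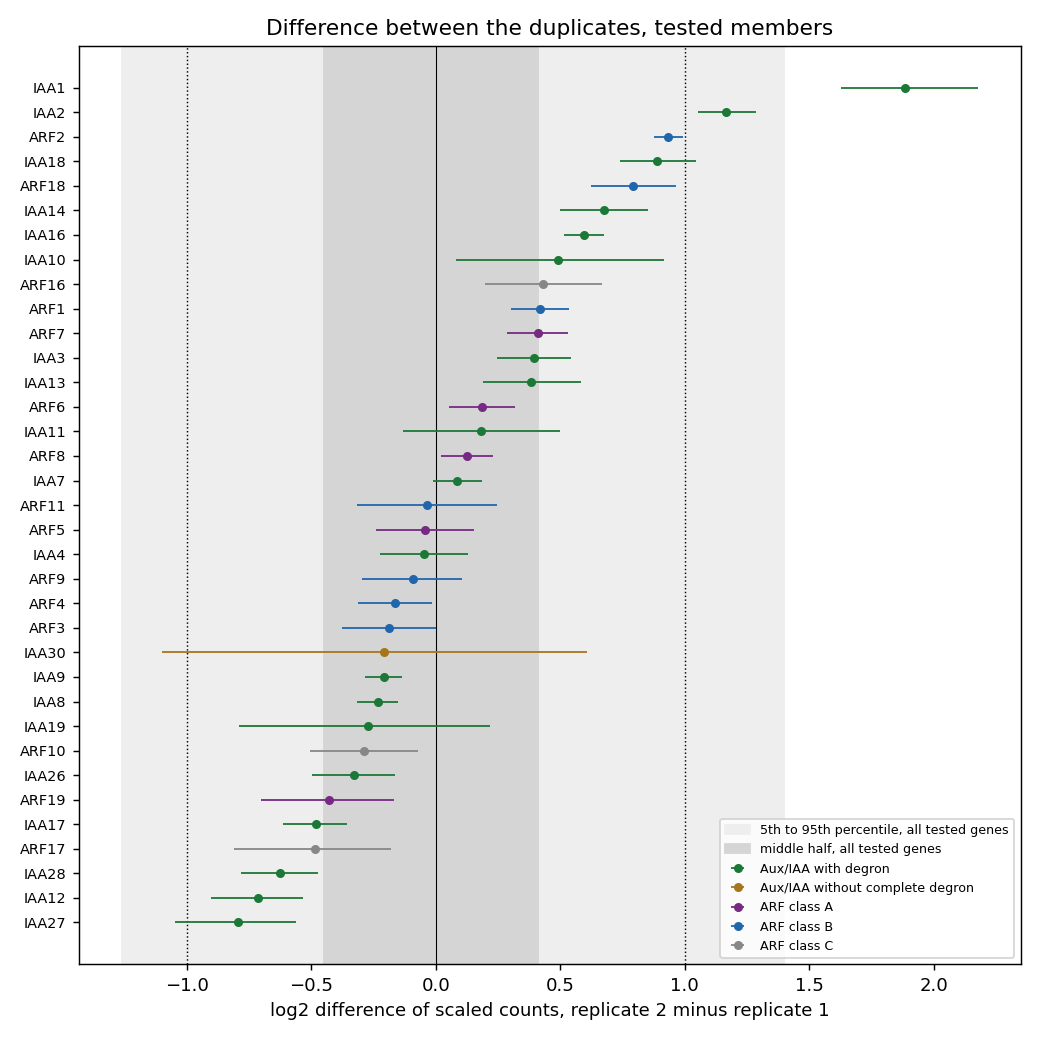
Log2 difference of scaled counts, replicate 2 minus replicate 1, for the 35 tested members, with 95% counting intervals as bars. Dotted lines mark 2-fold, and the shaded bands give the interquartile range (-0.45 to 0.41) and the 5th to 95th percentiles (-1.26 to 1.40) of all tested genes; only IAA1 lies beyond the wider band.

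The counts were also compared by a two-sided exact binomial test with Benjamini-Hochberg adjustment over all tested genes, which covers counting error only and compares these libraries, not conditions. It called 25 of 35 members (71.4%), against 63.8% of all tested genes, with 15 members higher (31.9% of tested genes) and 10 lower (31.9% of tested genes) in replicate 2. Of the Aux/IAA genes 8 were higher, 7 lower and 5 not called, and of the ARFs 7 were higher, 3 lower and 5 not called. Among the ARFs, the activators ARF6, ARF7 and ARF8 were called higher and ARF19 lower, at log2 differences of 0.19, 0.41, 0.12 and -0.43. The 3 class B genes called, ARF1, ARF2 and ARF18, were all higher in replicate 2. In class C, ARF16 was called higher, at 0.43, and ARF10 and ARF17 lower, at -0.29 and -0.49. ARF4 (adjusted p = 0.0514) and ARF3 (adjusted p = 0.0779) missed the threshold of 0.05 in this exact test.

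The 9 members below the count minimum were all Aux/IAA genes, 5 of them without a complete degron. IAA31 had 6 counts in replicate 2 and 48 in replicate 1, a ratio of scaled counts of 0.214 (95% counting interval 0.0749 to 0.501). IAA33 had 2 counts in replicate 2 and 19 in replicate 1, a ratio of 0.180 (0.0204 to 0.748), and IAA15 had 17 counts in replicate 2 and 7 in replicate 1, a ratio of 4.16 (1.64 to 11.9). Counting intervals for IAA5, IAA6, IAA20, IAA29, IAA32 and IAA34 included 1. With these genes kept, by a minimum of 1 count in either library, 7 of 44 members were past 2-fold, 5 higher (IAA1, IAA2, IAA15, IAA29 and IAA32) and 2 lower (IAA31 and IAA33) in replicate 2, against 20.7% of the 24537 genes then tested.

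In 3 places of the genome a pair of Aux/IAA genes lie next to each other or with 1 gene between, transcribed in opposite directions away from each other, and in each the 2 genes differed in how they compared between the libraries. IAA1 (chromosome 4, 8361058 to 8361986, TAIR10) lies 11.0 kb from IAA14 (8347822 to 8350019). IAA1 was at 47.2 TPM in replicate 2 and 12.5 TPM in replicate 1, and IAA14, the repressor of the solitary-root mutant, at 42.4 TPM in replicate 2 and 27.1 TPM in replicate 1, so that IAA1 over IAA14 was 1.11 in replicate 2 and 0.464 in replicate 1. IAA2 (chromosome 3, 8180768 to 8181800) lies 12.9 kb from IAA7 (8194679 to 8197153), and IAA2 over IAA7 was 1.39 in replicate 2 and 0.636 in replicate 1. IAA3 (chromosome 1, 1128188 to 1129551) lies 6.71 kb from IAA17 (1136258 to 1138613), and IAA3 over IAA17 was 0.859 in replicate 2 and 0.498 in replicate 1. In all 3 pairs the gene on the shorter span had the higher log2 difference, 1.88 against 0.67, 1.17 against 0.09 and 0.39 against -0.48. The counting intervals of the 2 genes of a pair did not overlap. These intervals cover counting error only, and the exact binomial test on counts called 63.8% of all tested genes. How often other pairs of genes differ in this way was not tested.

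**Figure D4:**
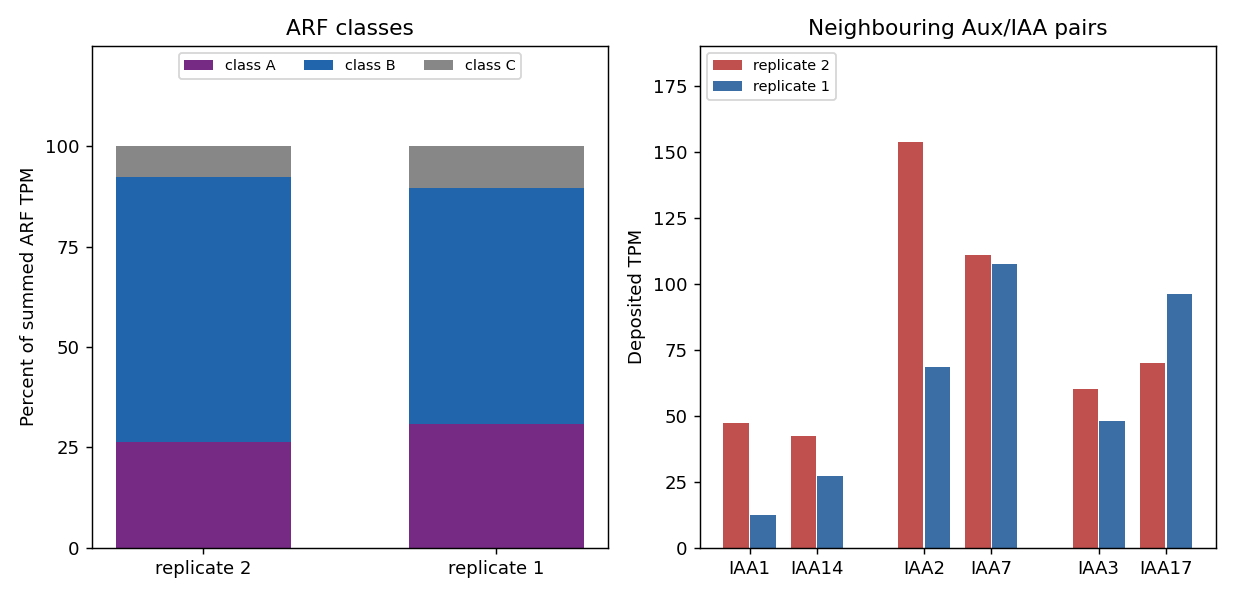
Left, percent of the summed ARF TPM in class A, class B and class C for replicate 2 and replicate 1; class B held 65.9% and 58.7%, class A 26.4% and 30.9%, and class C 7.76% and 10.4%. Right, deposited TPM of the 3 neighbouring Aux/IAA pairs in both libraries; IAA1 and IAA2 were the higher gene of their pair in replicate 2 and the lower in replicate 1.

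Auxin response elements, the sites that ARF proteins bind, were searched for in the 300 bases from 250 before to 50 after each gene start of TAIR10.1, whose starts differ from those of the files for many genes, on both strands, for all 27443 nuclear protein-coding genes. The windows of 27 of the 29 Aux/IAA genes and of all 15 ARFs are reported. TGTCTC was present in 10 of 27 Aux/IAA windows (37.0%) and 1 of 15 ARF windows (6.67%), against 14.2% of all windows. TGTCGG was present in 6 Aux/IAA windows (22.2%) and 2 ARF windows (13.3%), against 5.12% of all, and TGTCCC in 3 Aux/IAA windows (11.1%) and 0 ARF windows, against 4.89% of all. At least 1 of these 3 forms, which can overlap one another only at their ends, was present in 16 Aux/IAA windows (59.3%) and 3 ARF windows (20.0%), against 22.5% of all. The G-box CACGTG, bound by PIF and other bHLH and bZIP factors, was present in 3 Aux/IAA windows (11.1%) and 0 ARF windows, against 7.68% of all, and ACGTGTC, an abscisic acid response element that can overlap it, in 4 Aux/IAA windows (14.8%) and 1 ARF window (6.67%), against 4.33% of all. IAA1 had all 3 forms of the auxin element in its window, and IAA2 had none of the 5 motifs. Matches are letters in these windows and were not shown to be bound.

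The windows of IAA1, which differed most between the libraries among members with at least 10 counts in both, and of IAA19, which held 3 TGTCTC, are printed 5′ to 3′ along the gene with motif letters in capitals, in either orientation.
IAA1 (chr4:8360746-8361045, plus strand): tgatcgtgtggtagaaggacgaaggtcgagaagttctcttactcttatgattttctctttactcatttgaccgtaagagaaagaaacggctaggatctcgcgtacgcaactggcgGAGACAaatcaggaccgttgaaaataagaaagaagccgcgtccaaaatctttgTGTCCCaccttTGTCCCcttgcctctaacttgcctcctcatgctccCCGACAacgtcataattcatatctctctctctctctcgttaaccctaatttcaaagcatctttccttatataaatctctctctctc
IAA19 (chr3:5263751-5264050, plus strand): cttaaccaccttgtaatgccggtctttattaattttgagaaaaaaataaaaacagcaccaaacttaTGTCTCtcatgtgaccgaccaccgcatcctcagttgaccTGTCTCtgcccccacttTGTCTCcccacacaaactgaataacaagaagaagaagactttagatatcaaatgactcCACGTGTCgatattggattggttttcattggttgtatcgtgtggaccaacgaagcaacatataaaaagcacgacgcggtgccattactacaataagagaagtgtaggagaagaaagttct

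**Figure D5:**
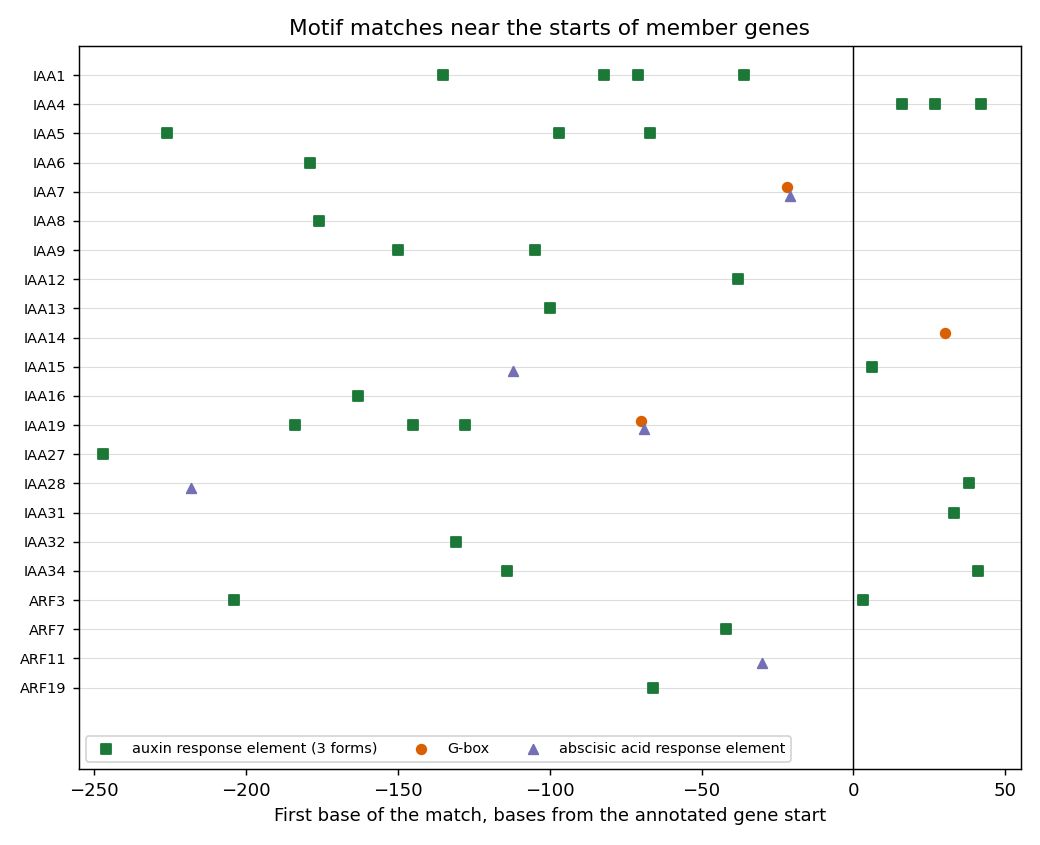
Positions of motif matches in the windows around the starts of the reported members with a match, in bases from the annotated gene start (0), for the 3 forms of the auxin response element (squares), the G-box (circles) and the abscisic acid response element (triangles). Of the windows reported, those of 16 Aux/IAA genes and 3 ARFs (ARF3, ARF7 and ARF19) have an auxin response element here.

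Of the partners of these proteins, all 6 auxin receptors were tested, and 0 were past 2-fold between the duplicates, against 17.0% of all tested genes. TIR1 had 54.3 TPM in replicate 2 and 48.4 TPM in replicate 1, and AFB2 had 23.1 TPM in replicate 2 and 36.0 TPM in replicate 1. Among the 5 co-repressors, TPL was highest, with 84.7 TPM in replicate 2 and 65.5 TPM in replicate 1, and TPR4 followed with 40.5 TPM in replicate 2 and 29.9 TPM in replicate 1; 0 were past 2-fold. The ligase subunit ASK1 had 298 TPM in replicate 2 and 211 TPM in replicate 1, and its partner CUL1 had 91.0 TPM in replicate 2 and 77.0 TPM in replicate 1. The exact binomial test called 2 of 6 receptors, with TIR1 higher and AFB2 lower in replicate 2. It also called all 5 co-repressors, 4 higher and 1 lower, and all 3 ligase subunits, all higher, against 63.8% of all tested genes. The spans of TPL, TPR3, TPR4, AFB1, AFB3 and AFB4 each overlap that of another gene in the files, so their values are uncertain.

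Other auxin pathway genes, counted together with the receptors, ligase subunits and co-repressors above, were past 2-fold about as often as all tested genes. Of 42 other auxin pathway genes 34 were tested, 3 were past 2-fold higher in replicate 2 and 3 lower, which is 17.6% of those tested, against 17.0% of all tested genes. All 6 were SAUR genes (3 of 5 tested, 60%) or auxin synthesis genes (3 of 9 tested, 33.3%), so the share differed between the lists. The median absolute log2 difference of the 34 genes was 0.38, against 0.43 for all tested genes. The 3 higher were SAUR21, SAUR23 and SAUR24, small growth-promoting genes, at log2 differences of 1.63 (0.87 to 2.74), 1.15 (0.12 to 2.57) and 1.68 (1.07 to 2.52). Their counts lay between 11 and 52, and they are close copies between which reads can be split, so that single values are uncertain. Of 6 tested GH3 genes, which conjugate auxin to amino acids, 0 were past 2-fold, with GH3.6 at 28.3 TPM in replicate 2 and 19.2 TPM in replicate 1 and GH3.17 at 20.4 TPM in replicate 2 and 27.5 TPM in replicate 1. The 3 LBD genes, targets of ARF7 and ARF19 in lateral root formation, stayed below the minimum, and LBD16 had 3 counts in replicate 2 and 23 in replicate 1. The 3 lower genes act in auxin synthesis. TAR2 had 6.72 TPM in replicate 2 and 16.5 TPM in replicate 1 (log2 difference -1.25, -1.58 to -0.96), YUC2 had 1.06 TPM in replicate 2 and 2.99 TPM in replicate 1 (-1.33, -2.17 to -0.68), and YUC3 had 0.691 TPM in replicate 2 and 1.69 TPM in replicate 1 (-1.13, -2.27 to -0.29). Beside these values stand the markers of tissues: root markers summed to 65.7 TPM in replicate 2 and 96.1 TPM in replicate 1, and the vascular markers to 264 TPM in replicate 2 and 121 TPM in replicate 1, and their part in the differences was not tested.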

How the data were processed

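Messenger RNA of 2 libraries of 1 group was read as paired ends. The labels' protocols name a stranded and an unstranded TruSeq kit and 2 centres. They do not say which kit or centre each library had, or whether the 2 libraries differed in either. Named in the submitters' processing notes are the build TAIR10 and the tools TopHat, Trimmomatic, FastQC and Picard, with no version or role. The counting tool and whether strand was used: not given in the sources used here. The authors deposited whole-number counts without normalization, FPKM, and TPM, which equals the FPKM rescaled to a constant sum.

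Levels are the deposited TPM, with mean ± SD of n = 2, on a log2(TPM + 1) scale for medians. Library totals were scaled by TMM (edgeR 4.0.16, R 4.3.3) over the 19519 genes that reached 10 counts in each library; differences used a prior count of 2, and intervals are Clopper-Pearson at 95%. Coordinates of genes are those of the files, with 1 added to the start. Intervals and the floor of 3 counts for a count of 0 cover counting error only. Sequences, exon lengths and gene starts are from TAIR10.1, which holds 97.8% of the file's identifiers with partly different gene models. The exact binomial test was tested on simulated data with Poisson noise for this comparison over 19519 genes: it called 83 of 100 simulated 2-fold changes, 99 of 100 simulated 4-fold changes and 10 of 19319 unchanged genes. Poisson noise is what the test assumes, so the simulation cannot show its rate of false calls between real duplicates, where it called 63.8% of tested genes. IAA13 and ARF7 overlap another gene's span, and their values are uncertain. The members and lists were chosen with earlier results of these data known. All members are accounted for; values in both libraries were given by a rule for the highest and lowest of each subgroup and those past 2-fold, and further members were added after their values were seen. Alternatives were DESeq2 1.42.0 size factors, total counts, other minimums, prior counts and pseudocounts, TPM computed from counts, thinning of replicate 1, and each replicate alone. The promoter windows of 2 Aux/IAA genes are not reported here and are left out of the members' motif counts.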

Additional observations from a re-analysis of the deposited data

How the results depend on the processing

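No paired analysis was possible because there is only 1 group. With TPM computed from counts, the Aux/IAA level was 4.46, the ARF level 4.20 and their difference 0.26; with only members of at least 10 counts in both libraries the Aux/IAA level was 5.52 and the difference 1.47, since low members drop out, and with a pseudocount of 0.1 the ARF level was 3.97. Without replicate 1 or without replicate 2 the Aux/IAA level ranged from 4.81 to 4.92, the ARF level from 4.04 to 4.06, their difference from 0.77 to 0.86 and the share of class A from 26.4% to 30.9%. The median log2 difference of Aux/IAA genes changed sign to -0.051 with total counts, -0.037 with a minimum of 1 count in either library and -0.0089 with deposited TPM, and is not read as a direction; total counts moved the median of all tested genes to -0.07. A minimum of 1 count in either library raised the members past 2-fold to 7. All 35 tested members kept their side of 2-fold under the 6 alternatives, except that a minimum of 50 counts left out 1 of them. The exact binomial test called 23 to 28 members. Depth limits the 9 members under 10 counts.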
